A study of Homo sapiens with 8 samples.

Results

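The genes described here are 46 core genes of DNA replication and nucleotide supply, measured by RNA-seq in cells labelled Caco-2, an established human colorectal adenocarcinoma cell line. They were chosen by symbol from a list of replication proteins and by no threshold on their values, but with earlier results of these data known. Each of the 46 symbols stood on 1 entry of the table of 63816 gene entries. All 46 were among the 15590 entries that reached 1 TPM (transcripts per 1e+06 transcripts) in at least 4 samples and so entered the test. The study compared 4 libraries from cells transfected with the empty vector pcDNA3.1(-) with 4 libraries from cells transfected with the same vector carrying full-length SIGLEC12, the gene for Siglec-XII, an immunoglobulin-type lectin of the cell surface that in humans has lost sialic acid binding. Both groups were cultured in MEM with fetal bovine serum under selection with G418, so the selection drug and the vector backbone were shared. The groups were transfected and selected separately, so that an effect of Siglec-XII and any other difference between the 2 cell populations cannot be told apart. The labels list 4 samples per group, but the series text speaks of stable clones and fewer cultures and the methods of technical replicate libraries, so p-values may measure only the spread between libraries.

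A cell copies its genome once per division. In G1 the origin recognition complex, CDC6 and CDT1 load the ring-shaped MCM2-7 helicase onto origins (licensing), and in S phase MCM10, CDC45 and the GINS complex turn the loaded rings into active helicases. DNA polymerase alpha with its primase starts each strand, polymerases epsilon and delta extend the leading and lagging strands with the sliding clamp PCNA, its loader RFC and the single-strand binding complex RPA, and FEN1 and LIG1 join the lagging strand pieces. Ribonucleotide reductase, thymidylate synthase and thymidine kinase supply deoxynucleotides, and UHRF1 brings DNMT1 to new DNA to copy its methylation. Many of these genes are known targets of E2F transcription factors, which bind elements such as TTTCCCGC and TTTGGCGC and are held back by RB1 family (pocket) proteins outside S phase.

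TTTCCCGC and TTTGGCGC were each more frequent in the members' promoters than in all promoters of the reference. The latter were not matched to the members for base composition, and binding of E2F factors was not tested. In RefSeq promoter windows of GRCh38.p14, which run from 250 bases before to 50 bases after the annotated start, TTTCCCGC or TTTGGCGC stood on either strand in 17 of the 40 members with a window (42.5%) and in 2.31% of 27305 promoters. The first word was held by 27.5% of the members and 1.66% of all promoters, and the second by 15% and 0.659%. The windows below show 30 bases each, 5′ to 3′ on the strand of the gene, with the match in capitals. GCGGGAAA and GCGCCAAA are the same words read on the other strand. The first 4 belong to members with a low unadjusted p in the comparison and the rest to well-known replication genes whose groups overlapped, so that both kinds can be read side by side.
CDC6, chr17:40287875-40287904, plus strand: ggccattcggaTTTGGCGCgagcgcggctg
MCM7, chr7:100101566-100101595, minus strand: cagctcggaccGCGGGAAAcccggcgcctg
POLE2, chr14:49688201-49688230, minus strand: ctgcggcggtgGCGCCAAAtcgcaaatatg
UHRF1, chr19:4909476-4909505, plus strand: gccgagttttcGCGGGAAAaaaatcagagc
PCNA, chr20:5126663-5126692, minus strand: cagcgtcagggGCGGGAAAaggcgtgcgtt
TYMS, chr18:657603-657632, plus strand: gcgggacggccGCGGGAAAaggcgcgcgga
MCM6 distal, chr2:135876577-135876606, minus strand: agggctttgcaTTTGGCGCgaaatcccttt
MCM6 proximal, chr2:135876515-135876544, minus strand: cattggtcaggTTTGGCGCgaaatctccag
MCM3, chr6:52284898-52284927, minus strand: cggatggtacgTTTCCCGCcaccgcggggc
POLE, chr12:132687342-132687371, minus strand: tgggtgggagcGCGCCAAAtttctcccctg

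In POLE2 the match began 5 bases before the start and in UHRF1 14 bases before it, while in CDC6 it began at base 8 after the start and in MCM7 187 bases upstream. TTTGAA, the core of the cell cycle homology element of mitotic promoters, stood on either strand in 1 of the 40 members (2.5%) against 15.4% of all promoters, and CCAAT in 23 (57.5%) against 35.7%. Of 25 mitosis and G2/M genes with a window, 1 held an E2F-type word and 15 (60.0%) held TTTGAA. Such a match describes letters only. Of the 10 members with an unadjusted p of 0.05 or less in the comparison, 4 held an E2F-type word, as did 13 of the other 30 with a window.

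The transfected gene was checked first. SIGLEC12 stood between 0.0399 and 0.122 TPM in the 4 empty vector libraries and between 1580 and 1730 TPM in the 4 Siglec-XII libraries, a difference of 10.59 on the log2(TPM + 1) scale (p = 0.0286 by an exact permutation test, two-sided, the lowest value possible with 8 libraries). The values are relative within a library and the deposited table gives no read counts, so the depth behind each value is unknown and no interval from counts can be given. Epithelial markers were high in every library (EPCAM at a median of 552 TPM), with sums from 8360 to 9350 TPM in empty vector and from 9950 to 10400 TPM in Siglec-XII libraries, which did not overlap. However, of 18 colon and enterocyte markers 3 reached 1 TPM in 4 samples and 12 stayed under 1 TPM in all, with FABP1, KRT20, SI and PHGR1 listed at 0, while CDX1 and CDX2 stood at medians of 145 and 40.2 TPM. VIL1, another of the colon markers, stood at a median of 0.542 TPM. Of 14 trophoblast markers 12 reached 1 TPM in 4 samples, with medians of 379 TPM for GATA3, 186 for HAND1, 160 for TFAP2C and 177 for VGLL1. Most of the listed colon markers were thus nearly absent and most of the trophoblast markers present. The identity of the cells was not tested. The summed TPM of the colon markers ran from 172 to 195 in empty vector and from 198 to 229 in Siglec-XII libraries, and that of the trophoblast markers from 1550 to 1770 and from 1610 to 1650. Of 8 fibroblast markers 5 reached 1 TPM in 4 samples, with THY1 listed at 0 and sums from 70.8 to 87.0 and from 83.3 to 89.2 TPM. Leukocyte markers, with TYROBP listed at 0, summed to at most 1.96 TPM and endothelial markers to at most 11.6 TPM. The part of these markers in the results was not tested.

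The replication machinery was well expressed in all 8 libraries. Averaged over the 8, levels on the TPM scale, which is per transcript length, ran from 12.6 TPM for GINS4 to 339 TPM for MCM4 with a median of 55.9 TPM, and 12 members stood at 100 TPM or more, 29 from 20 to under 100 and 5 under 20. MCM4 (339), PCNA (288), RRM2 (163), MCM2 (158) and DNMT1 (140) were the 5 highest. GINS4 (12.6), POLE2 (15.3), POLA1 (16.5), GINS3 (16.7) and CDC45 (17.8), subunits of the helicase and of the polymerases, were the 5 lowest. In this order 42 of the 45 neighbouring pairs overlapped in their range over the 8 libraries. Both genes of a pair were measured in the same libraries, so such an overlap does not show that their levels were equal. The gaps came after PCNA, after TYMS and after ORC1. Together the members made up 0.329% to 0.357% of the TPM of a library.

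**Figure D1:**
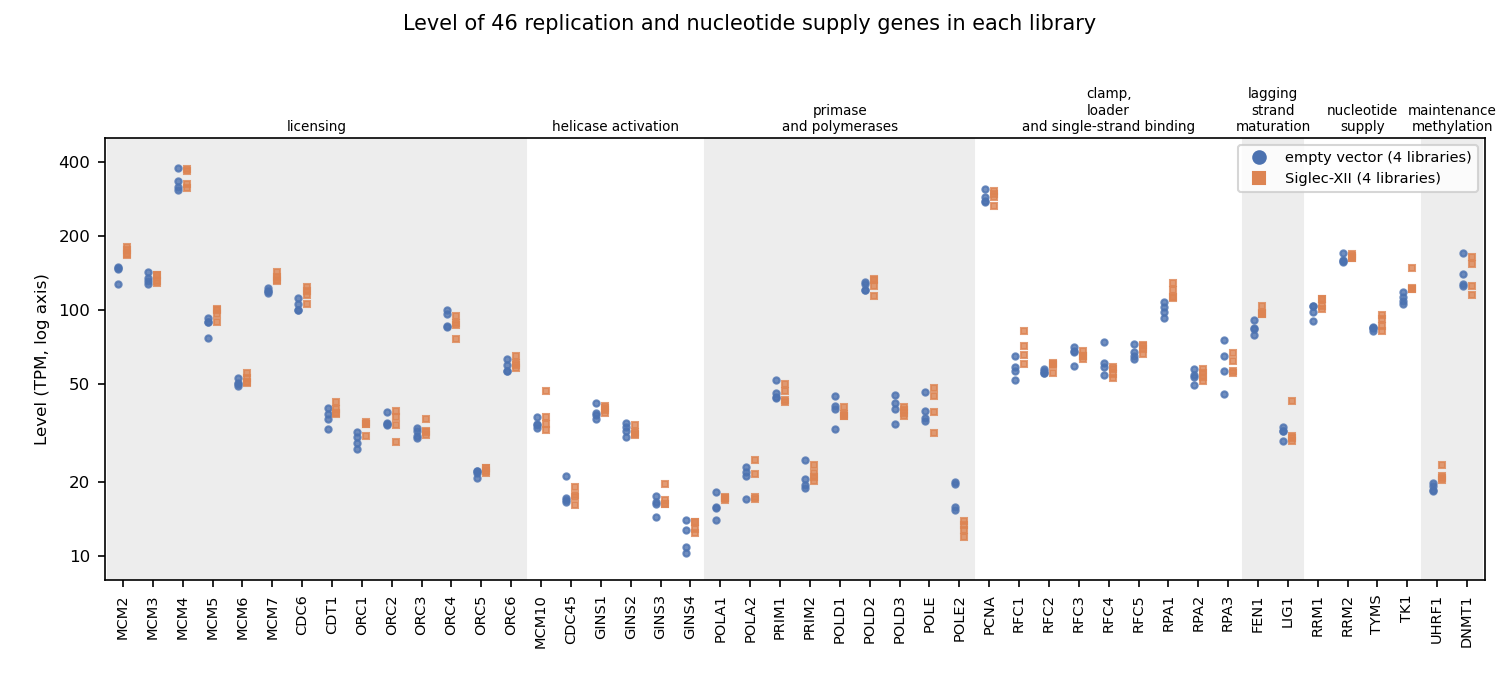
Level of each of the 46 members (TPM, log axis) in the 4 empty vector libraries (circles) and the 4 Siglec-XII libraries (squares), grouped by role. Levels span from about GINS4 (mean 12.6 TPM) to MCM4 (mean 339 TPM), and for most genes the circles and squares overlap.

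Counting only member genes, subunits of one complex were not at equal mRNA levels. In 5 of 9 complexes the same counted subunits were the highest and the lowest in 8 of 8 libraries. POLE3 and POLE4 of polymerase epsilon and POLD4 of polymerase delta are not members and were left out. Their means over the 8 libraries were 110, 95.7 and 14.4 TPM, so POLE was not the highest subunit of the whole epsilon complex. Within MCM2-7, MCM4 was the highest and MCM6 the lowest subunit in 8 of 8 libraries, with a ratio from 5.63 to 7.65 and a mean of 6.6 in both groups (SD 0.779 in the empty vector group and 0.725 in the Siglec-XII group, n = 4 each). Within the origin recognition complex ORC4 stood 3.44 to 4.52 times above ORC5, and within GINS GINS1 stood 2.77 to 3.63 times above GINS4, again in 8 of 8 libraries. RFC was the most even complex, with its highest subunit 1.14 to 1.40 times its lowest and no fixed order. RRM2, the small subunit of ribonucleotide reductase, was 1.47 to 1.74 times RRM1, the large one, in 8 of 8. TPM depends on the transcript lengths used in quantification, which were not given, so these ratios carry that uncertainty. The table names a transcript for each entry, of 572 nt for MCM4 and 3753 nt for MCM6. Whether the level of an entry rests on the named transcript alone is unknown.

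Between the groups no member passed the test. At an adjusted p under 0.05 (limma, Benjamini-Hochberg over all 15590 entries) 0 of the 46 members were called, against 0.648% of all tested entries, and the lowest adjusted p was 0.0966, for MCM2. At an unadjusted p of 0.05 or less there were 10 members (21.7%), against 16.5% of all entries. Of these, 9 (19.6%) had the higher mean with Siglec-XII, against 13.9% of all entries, and 1, POLE2, the lower, against 2.61%. In 6 members every Siglec-XII library lay above every empty vector library (13.0%), against 9.17% of all entries, and in 1 below (2.17%), against 1.68%. With the values as deposited, these shares of the members lay near those of all entries.

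The differences were small and the libraries close together. Log2 fold changes of the members, always Siglec-XII minus empty vector on the log2(TPM + 1) scale, ran from −0.41 to 0.27 with a median of 0.05, while all tested entries had a median of 0.07. The mean was higher with Siglec-XII in 34 of 46 members (73.9%) and in 68.1% of all tested entries, but in 19 of 46 with equal upper quartiles, in the same number after quantile normalization, 22 with the trend over transcript length removed and 26 without mitochondrial and the most abundant RNAs. For 45 of the 46 members the 95% confidence interval lay within ±0.5 (1.41-fold), and for 36 it included 0. The exception was POLE2, whose interval reached −0.63. The median spread between libraries of a group (pooled SD of log2 values) was 0.095 over the members, 0.106 over the 7667 tested entries in the same range of levels and 0.138 over all tested entries. ORC5 was the steadiest member (0.038) and RPA3 the most variable (0.233). Per library, the mean log2 level of the members averaged 5.77 ± 0.0379 (SD, n = 4) in empty vector libraries and 5.82 ± 0.0277 in Siglec-XII libraries, and the median log2 level of all tested entries moved alike, from 3.85 ± 0.0523 to 3.91 ± 0.0252. Long transcripts also stood higher relative to short ones with Siglec-XII: the median deviation of long minus short ran from −0.065 to 0.005 in the empty vector libraries and from 0.008 to 0.059 in the others. Length here was that of the transcript named for each entry, which was short for some members, such as MCM4. The part of length in the results was not tested beyond removing that trend.

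**Figure D2:**
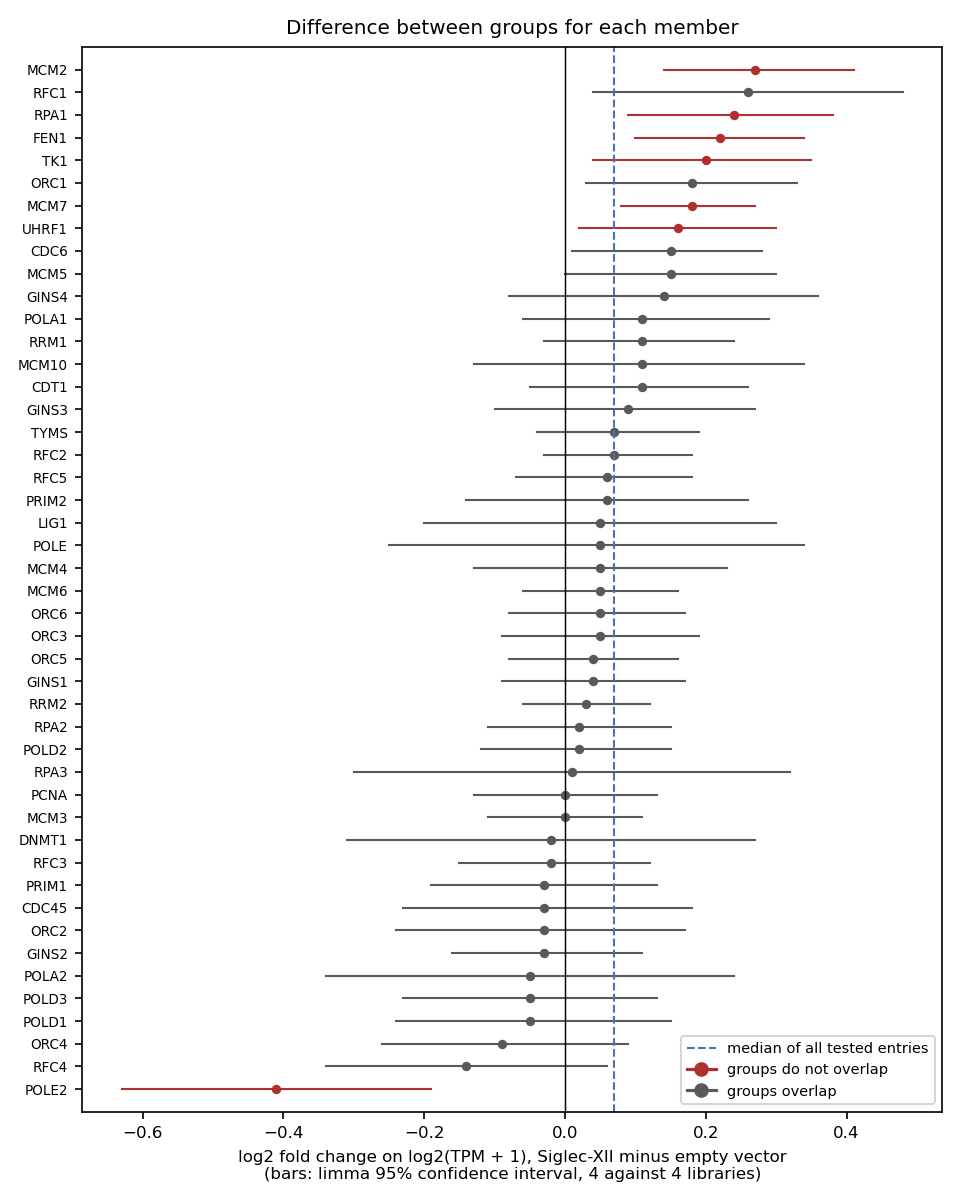
Log2 fold change of each member (Siglec-XII minus empty vector, points) with its limma 95% confidence interval (bars), ordered by size, with the median of all tested entries (0.07) as a dashed line. MCM2 (0.27) is at the top and POLE2 (−0.41) alone at the bottom, and members whose groups do not overlap are in red.

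Licensing genes (14) held 4 of the 10 low p-values (28.6% of the list, against 16.5% of all entries), all with the higher mean in Siglec-XII libraries. The 4 became 2 with equal upper quartiles, 2 after quantile normalization and 2 without the empty vector library 1 or 4 or the Siglec-XII library 1 or 4. Of the 14, 12 had a higher mean (median log2 fold change 0.05), but 6 with equal upper quartiles and 7 after quantile normalization. MCM2, a subunit of the helicase ring (chromosome 3, 127317253 to 127341279, plus strand, GRCh37), stood at 148, 150, 147 and 127 TPM in empty vector libraries 1 to 4 and at 169, 167, 175 and 180 TPM in Siglec-XII libraries 1 to 4, the order used throughout. All 4 Siglec-XII libraries lay above all 4 others, with the empty vector library 4 well below its group. The log2 fold change was 0.27 (95% confidence interval 0.14 to 0.41, limma adjusted p = 0.0966), a 1.21-fold difference.

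MCM7, another subunit of the ring (chromosome 7, 99689856 to 99699563, minus strand), stood at 117, 119, 119 and 123 TPM and at 136, 132, 131 and 143 TPM. The groups did not overlap, and the empty vector values were tight (119 ± 2.59, SD, n = 4, against 135 ± 5.56). The log2 fold change was 0.18 (0.08 to 0.27, adjusted p = 0.109). MCM7 hosts the microRNAs MIR25 and MIR93 on its own strand, at means of 18.0 and 2.1 TPM, and reads of the overlap could count for either. Its promoter match is shown above.

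The other 4 ring subunits differed less. MCM3 stood at 135, 131, 142 and 127 TPM and at 138, 129, 139 and 131 TPM, a log2 fold change of 0.00 (−0.11 to 0.11). MCM4, the most abundant member, stood at 376, 335, 316 and 306 TPM and at 367, 326, 373 and 312 TPM (0.05, −0.13 to 0.23). Both sets of values overlapped almost fully. MCM5 stood at 77, 93.1, 89.1 and 89.1 TPM and at 99.6, 95.9, 89.6 and 101 TPM (0.15, adjusted p = 0.304), with library 1 of the empty vector low. MCM6, at 49.2, 50.4, 50.1 and 52.7 TPM and at 50.7, 50.3, 52.8 and 55.4 TPM, differed by 0.05 (−0.06 to 0.16). So within 1 ring the 2 lowest p-values fell on MCM2 and MCM7, and the ratio of MCM2 to MCM3, a pair chosen after the values were seen and not tested, was 0.995 to 1.15 in empty vector libraries and 1.23 to 1.38 in Siglec-XII libraries.

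CDC6, which helps load the ring, stood at 100, 112, 106 and 100 TPM and at 115, 106, 119 and 124 TPM (chromosome 17, 38444131 to 38460909, plus strand). One Siglec-XII library lay within the empty vector range, and the log2 fold change was 0.15 (0.01 to 0.28, adjusted p = 0.275). ORC1, the largest subunit of the origin recognition complex and the one whose amount is cell cycle regulated, stood at 27.3, 31.9, 30.5 and 28.8 TPM and at 34.3, 30.7, 34.9 and 34.5 TPM. Here Siglec-XII library 2 sat among the empty vector libraries, and the log2 fold change was 0.18 (0.03 to 0.33, adjusted p = 0.235). The remaining subunits ORC2 to ORC6 had log2 fold changes from −0.09 (ORC4) to 0.05 (ORC3 and ORC6), and CDT1, the partner of CDC6 in loading, had 0.11 (−0.05 to 0.26). GMNN, the inhibitor of CDT1, gave a ratio of CDT1 to GMNN of 0.366 in empty vector and 0.415 in Siglec-XII libraries, with overlapping ranges.

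Helicase activation genes (6) had none of the low p-values, with log2 fold changes from −0.03 to 0.14. GINS4, the least abundant member, stood at 10.3, 10.9, 12.7 and 14.0 TPM and at 12.9, 13.7, 12.4 and 13.7 TPM (0.14, −0.08 to 0.36). GINS3, in the same complex, stood at 14.4, 17.5, 16.5 and 16.2 TPM and at 16.3, 16.9, 16.2 and 19.5 TPM (0.09, −0.10 to 0.27). CDC45, which with GINS and MCM2-7 forms the active helicase, stood at 16.9, 21.2, 17.1 and 16.6 TPM and at 19.1, 17.4, 16.1 and 17.6 TPM (−0.03, −0.23 to 0.18). The groups overlapped in all 3, and also in GINS1 (0.04) and GINS2 (−0.03). MCM10, an activator of the helicase, stood between 33.2 and 36.7 TPM with the empty vector and at 46.9, 36.6, 32.6 and 34.2 TPM with Siglec-XII, a mean difference of 0.11 in which only library 1 lay above the empty vector range.

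Primase and polymerase genes (9) had 4 higher and 5 lower means, with a median of −0.03. POLE2, the second subunit of the leading strand polymerase epsilon (chromosome 14, 50110273 to 50155140, minus strand), was the only member with a low p and a lower mean. It stood at 19.9, 15.3, 15.8 and 19.5 TPM in the first group and at 13.8, 11.9, 12.7 and 13.3 TPM in the second. The groups did not overlap, and the empty vector libraries split into a higher and a lower pair. The log2 fold change was −0.41 (−0.63 to −0.19, limma adjusted p = 0.109), a fold of 0.751, and it stayed between −0.48 and −0.35 under all 20 alternatives. Its partner POLE, the catalytic subunit, stood at 36.3, 35.2, 38.9 and 46.2 TPM and at 48.1, 38.6, 31.6 and 44.8 TPM (0.05, −0.25 to 0.34). The ratio of POLE to POLE2 averaged 2.24 ± 0.285 (SD, n = 4, 1.82 to 2.46) in empty vector libraries and 3.14 ± 0.448 (2.49 to 3.47) in Siglec-XII libraries, ranges that did not overlap. This pair too was chosen after the values were seen and was not tested. POLA1, the catalytic subunit of polymerase alpha, stood at 18.1, 15.8, 15.6 and 14.0 TPM and at 17.3, 17.2, 17.2 and 16.9 TPM (0.11, −0.06 to 0.29). The others, POLA2, the primase genes PRIM1 and PRIM2 and the polymerase delta genes POLD1, POLD2 and POLD3, lay between −0.05 and 0.06. PRIM1 overlaps NACA, at 1690 TPM, on the same strand.

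**Figure D3:**
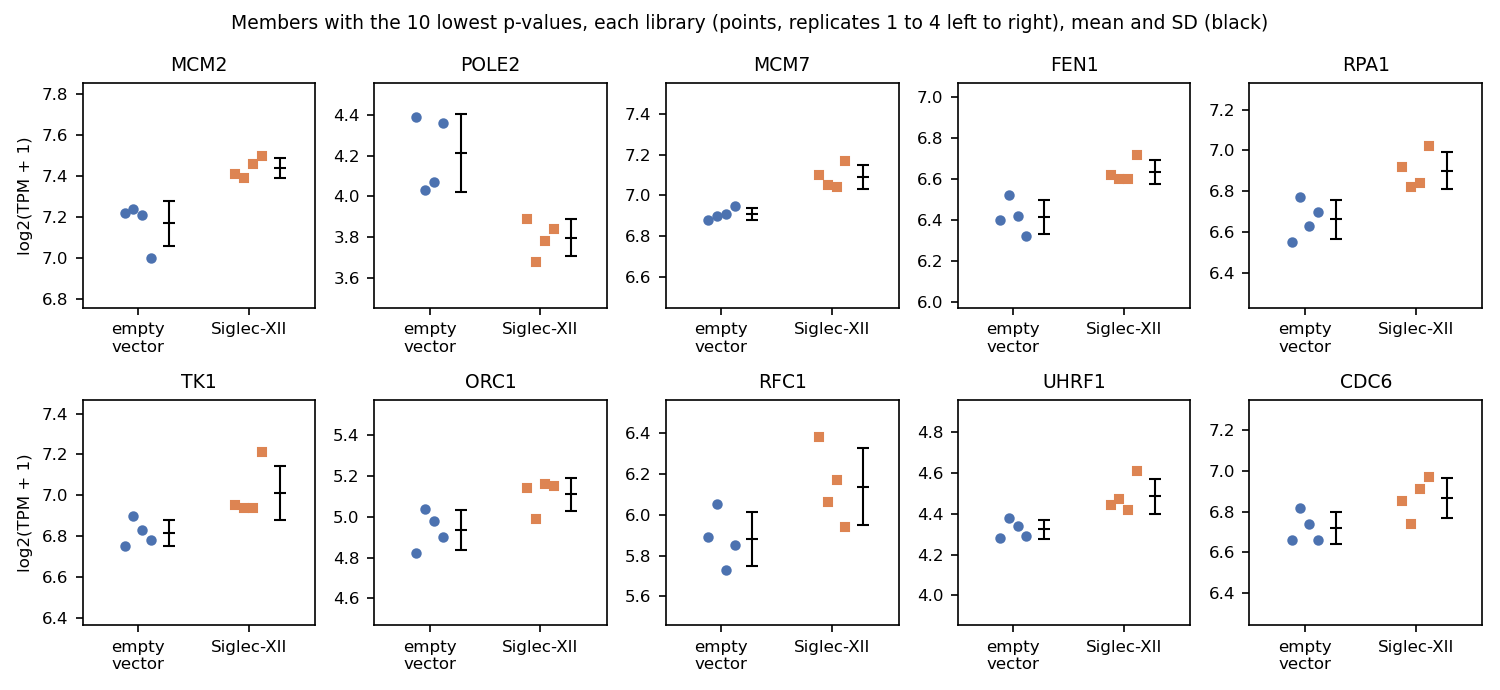
Level of the 10 members with an unadjusted p of 0.05 or less (log2(TPM + 1), each panel spanning the same height) in each empty vector library (circles) and Siglec-XII library (squares), with mean and SD of 4 in black. POLE2 is the only panel with lower Siglec-XII values, and ORC1, RFC1 and CDC6 are the panels where the groups overlap.

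Clamp, loader and single-strand binding genes (9) had a median of 0.02, with 7 higher means but 3 with equal upper quartiles or quantile normalization. RPA1, the large subunit of the single-strand binding complex (chromosome 17, 1732996 to 1803376, plus strand), stood at 92.9, 108, 98.2 and 103 TPM and at 120, 112, 113 and 129 TPM. The groups did not overlap, with a log2 fold change of 0.24 (0.09 to 0.38, adjusted p = 0.130). Its partners RPA2 (0.02, −0.11 to 0.15) and RPA3 (0.01, −0.30 to 0.32) had differences near 0, and RPA3 ran from 45.6 to 75.7 TPM within the empty vector group alone. The ratio of RPA1 to RPA2 was 1.80 to 1.99 in empty vector libraries and 2.13 to 2.25 in Siglec-XII libraries. It was not tested, and as RPA2 hardly differed it restates the difference of RPA1. RFC1, the large subunit of the clamp loader, stood at 58.5, 65.0, 52.0 and 56.5 TPM and at 82.2, 65.6, 71.0 and 60.5 TPM. Library 4 of Siglec-XII fell within the empty vector range, and the log2 fold change was 0.26 (0.04 to 0.48, adjusted p = 0.238). RFC2 to RFC5 lay between −0.14 (RFC4) and 0.07 (RFC2), and RFC4 overlaps EIF4A2, at 403 TPM, on the opposite strand. PCNA, the clamp itself and a common marker of proliferation, stood at 277, 275, 289 and 311 TPM and at 297, 264, 305 and 289 TPM. Its groups overlapped over most of their range, and the difference of 0.00 had an interval from −0.13 to 0.13.

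Of the lagging strand genes, FEN1, the nuclease that trims primer flaps (chromosome 11, 61560383 to 61564710, plus strand), stood at 83.5, 90.9, 84.4 and 78.9 TPM and at 97.2, 95.9, 96.0 and 104 TPM. The groups did not overlap, with a log2 fold change of 0.22 (0.10 to 0.34, limma adjusted p = 0.109). FEN1 overlaps FADS2, at 269 TPM, on the same strand. LIG1, the ligase that seals the nicks, stood between 29.3 and 33.5 TPM with the empty vector and at 30.2, 42.5, 29.4 and 30.8 TPM with Siglec-XII (0.05, −0.20 to 0.30), library 2 standing apart.

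All 4 nucleotide supply genes had a higher mean with Siglec-XII as deposited (median 0.09), and 3 of 4 with equal upper quartiles, quantile normalization or the length trend removed. TK1, the thymidine kinase of the salvage route (chromosome 17, 76170172 to 76183314, minus strand), stood at 106, 118, 113 and 109 TPM and at 123, 122, 122 and 148 TPM. The groups did not overlap, though Siglec-XII library 4 stood far above the other 3, and the log2 fold change was 0.20 (0.04 to 0.35, adjusted p = 0.216). TYMS, thymidylate synthase of the de novo route, stood at 82.2, 84.5, 84.0 and 85.0 TPM and at 91.4, 82.1, 85.6 and 95 TPM (0.07, −0.04 to 0.19). RRM1 stood at 90.1, 104, 104 and 97.6 TPM and at 101, 104, 111 and 111 TPM (0.11, −0.03 to 0.24). RRM2 stood at 157, 170, 158 and 159 TPM and at 165, 163, 163 and 168 TPM (0.03, −0.06 to 0.12). These last 3 overlapped between the groups, and the interval of RRM2, the subunit whose amount follows S phase, was among the narrowest.

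**Figure D4:**
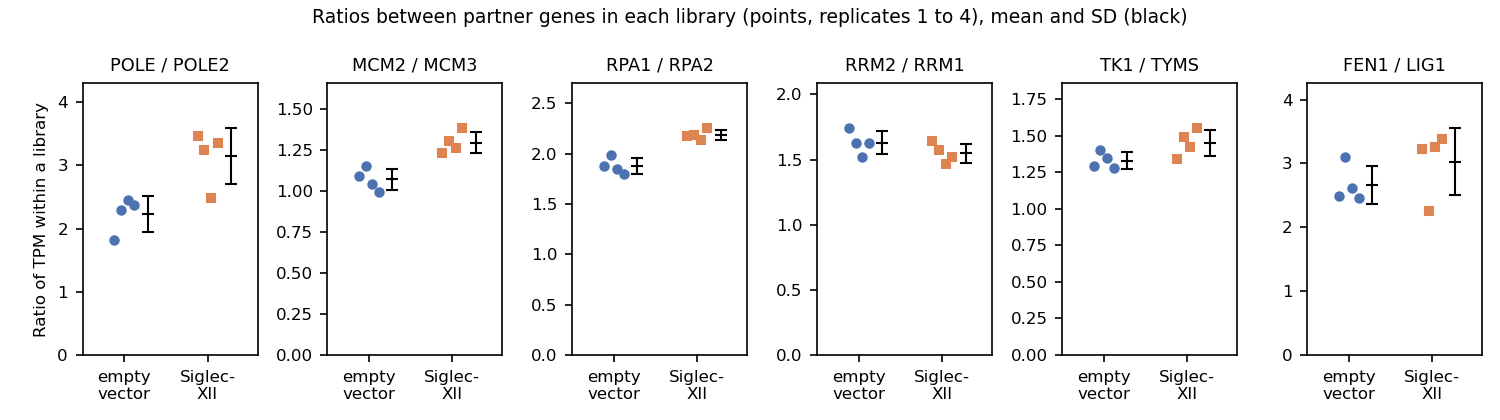
Ratio of TPM between partner genes within each empty vector library (circles) and Siglec-XII library (squares), with mean and SD of 4 in black, axes starting at 0. The ranges do not overlap for POLE/POLE2, MCM2/MCM3 and RPA1/RPA2, and overlap for RRM2/RRM1, TK1/TYMS and FEN1/LIG1. None of these ratios was tested, and they restate the differences of the single genes.

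Of the methylation genes, UHRF1, which recognises hemimethylated DNA behind the fork (chromosome 19, 4903092 to 4962165, plus strand), stood at 18.4, 19.8, 19.2 and 18.5 TPM and at 20.7, 21.1, 20.4 and 23.4 TPM. The groups did not overlap, with a log2 fold change of 0.16 (0.02 to 0.30, adjusted p = 0.240). DNMT1, the maintenance methyltransferase, stood at 170, 140, 125 and 128 TPM and at 154, 125, 164 and 115 TPM, a difference of −0.02 within a wide interval (−0.31 to 0.27).

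The genes around this core also had no call at an adjusted p under 0.05. Of 33 other replication factors, all tested, 22 had a higher and 11 a lower mean (median 0.05). Of these, 3 (9.09%, against 13.9% of all entries) and 1 (3.03%, against 2.61%) had an unadjusted p of 0.05 or less. DBF4, the activator of the CDC7 kinase that fires origins, was the 1 with the lower mean: 5.89 ± 0.06 (SD, n = 4) against 5.71 ± 0.07 on the log2 scale (−0.18, adjusted p = 0.164), and its groups did not overlap. TIMELESS, a fork protection protein, and TOPBP1, which helps assemble the helicase, each differed by 0.14 (adjusted p = 0.233 and 0.293). Of 24 other nucleotide metabolism genes, 16 had a higher and 8 a lower mean (median 0.03). The lowest p-values were those of SAMHD1, which breaks deoxynucleotides down (0.21, adjusted p = 0.174), UMPS of pyrimidine synthesis (0.22, 0.181) and DCTD, which feeds the thymidylate route (0.14, 0.252).

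Among the E2F and pocket protein regulators, 12 of 13 were tested and 9 had a higher mean (median 0.09), 7 with equal upper quartiles. Of the 12, 4 (33.3%, against 13.9% of all entries) had an unadjusted p of 0.05 or less, all with a higher mean. The same number (33.3%, against 9.17%) had every Siglec-XII library above every empty vector library. Those 4 low p-values became 2 with equal upper quartiles, 2 after quantile normalization and 1 with the length trend removed. The repressor E2F6 (0.17, adjusted p = 0.159), RB1 (0.17, 0.189) and the activator E2F3 (0.18, 0.217) had the lowest p-values. For comparison, the 30 mitosis and G2/M genes had 13 higher and 17 lower means (median −0.04), and 3 higher and 27 lower with equal upper quartiles. In that list 1 gene (3.33%, against 13.9% of all entries) had an unadjusted p of 0.05 or less with a higher and 4 (13.3%, against 2.61%) with a lower mean. These 5 became 11 after quantile normalization, 11 with the length trend removed, 9 with equal upper quartiles, 3 without the trend of the fit, 3 without the empty vector library 4 and 1 without the Siglec-XII library 2. The lowest p-values were those of CDC25B, a phosphatase that activates CDK1 (0.19, adjusted p = 0.147), and the spindle genes MAD2L1 (−0.14, 0.211) and NUF2 (−0.21, 0.256). The per library mean of the mitosis list was 6.41 ± 0.0372 in empty vector and 6.37 ± 0.0361 in Siglec-XII libraries. In bulk RNA, fewer cells in a phase and less RNA per cell cannot be told apart.

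Of the 7 members without overlap between the groups, 7 also had none after quantile normalization, where there were 8 such members, and with equal upper quartiles, and 6 with the length trend removed, where RRM2 joined. The shares of all entries in either direction were 7.87%, 8.19% and 8.02% in these settings. The counts of members there were 8, 7 and 7 of 46. As deposited, 7 of 46 was 15.2%, beside 10.8% of all entries, so the members' share stood further above that of all entries in these settings. The difference between these shares was not tested. When the empty vector library 2 or the Siglec-XII library 2 was left out the count was 11, beside 19.3% and 15.4% of all entries in either direction, against 10.8% with all libraries. ORC1 joined in both cases. Of the 10 members with a low p, 6 kept it under quantile normalization, where 12.6% of all entries had one, and 6 with equal upper quartiles, where 12.9% did.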

How the data were processed

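RNA-seq libraries (paired reads of 100 bp) were made with a stranded rRNA-depleting kit per the labels, whereas the methods name a poly(A) kit. The authors quantified them with kallisto (0.45.0 in the submitters' processing notes) on hg19 and deposited log2(TPM + 1), 1 column per sample. Its strand setting was not given in the sources used here. Groups came from the sample titles. All columns were mapped and used as deposited, the exact depth of each library being unknown.

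Entries reaching 1 TPM in at least 4 samples (15590) were fitted with limma 3.58.1 in R 4.3.3 (lmFit, eBayes with trend, Benjamini-Hochberg adjustment over all of them). The pseudocount of 1 understates the fold of low genes. For SIGLEC12 an exact permutation test (two-sided) was used. The study's count-based test was not used, as its counts are not in the table. Gene positions came from GENCODE v44 lifted to GRCh37, promoter windows from RefSeq on GRCh38.p14. Python 3.11.15 and matplotlib 3.10.9 served for tables and plots. Of the members 17 overlap another tested entry on the genome, 7 on the same strand.

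The members and lists were chosen with earlier results of these data known. Full values are given for members with an unadjusted p of 0.05 or less or groups without overlap, the 5 highest and 5 lowest levels, nucleotide supply, PCNA and MCM2-7. Other lists name the 3 lowest p-values, besides GMNN and the polymerase subunits left out of the complexes. Alternatives covered pseudocount, filters, scaling, transcript length, replicate block, trend, array weights, entry choice and each library left out. Protein patterns were not analysed here.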

Additional observations from a re-analysis of the deposited data

Results flagged for a closer look

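In 8 of the 92 groups of 4 values (46 members in each group) 1 library stood apart from the other 3 by Dixon's criterion for the gap to the nearest library over the range, where chance gives about 5% of groups. All values are log2(TPM + 1). With the empty vector, MCM2 was low in library 4 (7.0, others 7.21 to 7.24). CDC45 was high in library 2 (4.47, others 4.14 to 4.18), as was RRM2 (7.42, others 7.30 to 7.32), and ORC2 was high in library 3 (5.3, others 5.13 to 5.16). With Siglec-XII, library 4 was high for FEN1 (6.72, others 6.60 to 6.62) and for TK1 (7.21, others 6.94 to 6.95). Library 2 was low for ORC1 (4.99, others 5.14 to 5.16) and high for LIG1 (5.44, others 4.93 to 4.99).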

How the results depend on the processing

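The count of members called at an adjusted p under 0.05 was 0 under all 20 alternatives, with a lowest adjusted p of 0.0621 (FEN1 without the empty vector library 2). The 10 members with an unadjusted p of 0.05 or less kept their direction under all of them, the log2 fold change of MCM2 lying between 0.20 and 0.30, but 15 of the 46 members changed sign after quantile normalization and 15 with equal upper quartiles. CDC6 went above an unadjusted p of 0.05 under 13, ORC1 under 9 and RFC1 and UHRF1 under 8 each. The 10 members with a low p became 6 after quantile normalization and 6 with equal upper quartiles. With the length trend removed 5 of 7 (71.4%) had the higher mean, against 90% as deposited. The median log2 fold change of the members (0.05) became −0.02 after quantile normalization, −0.01 with equal upper quartiles, 0.00 without mitochondrial and the most abundant RNAs and −0.01 with the length trend removed, while that of all entries became 0.01, 0.01, 0.03 and 0.00. Leaving out 1 library gave medians from 0.03 to 0.07 and 7 to 11 members without overlap. Over all entries 101 were called, 51 without a filter, 35 without small structured RNAs, 54 without the trend, and 49 (without the empty vector library 3) to 159 (without the empty vector library 2) with 1 library left out. Their higher share (52.5%) was 32.6% after quantile normalization, 29.3% with equal upper quartiles, 33.3% without the most abundant RNAs and 26.6% with the length trend removed. The cause was not tested. The sample titles do not say whether the replicate numbers pair the samples. Deviations of same-numbered libraries correlated at −0.074 to 0.059 and those of the other pairs at −0.117 to 0.069. These values show no sign of pairing but cannot tell how the samples were prepared. With the replicate number as a block, 0 members were called, 7 had a low p (2 of them licensing genes) and 69 entries were called (26.1% higher). Depth is unknown, and at an adjusted p under 0.05 even the difference of POLE2 (−0.41) was not called.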
